A study of Mus musculus with 6 samples.

Results

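Oxidative phosphorylation depends on 5 protein complexes of the inner mitochondrial membrane, most of whose subunits are encoded in the nucleus. The transcripts of these nuclear-encoded subunits were measured by RNA sequencing in mouse samples labelled as spinal cord neurons, in 3 groups, with 2 libraries in each. The members were chosen by gene symbol as protein-coding genes of the Nduf, Sdh, Uqcr, Cyc1, Cox and Atp5 subunit families, and 84 of the 35275 genes in the deposited tables matched, 35 of complex I, 4 of complex II, 9 of complex III, 19 of complex IV and 17 of complex V. Ndufa4, named for complex I, is counted with complex IV, where its product is now placed. A read was present for 83 of them, and Cox8c, a testis isoform of a cytochrome c oxidase subunit, had 0 reads in all 6 libraries.

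All samples are labelled as spinal cord neurons cultured in DMEM from postnatal day 3 mice of the outbred ICR stock. The untreated control group is coded IG, the mechanically injured group NG, and the group that was mechanically injured and then incubated with 75% hydrogen TG. This assignment of codes to treatments was taken as labelled and was not tested. Every direction given below rests on it. The labels do not tell whether the libraries of a group derive from different cultures or mice, and the p-values rest on a spread between libraries that may be technical. The 6 libraries held 15749447 to 23911141 reads assigned to genes, with at least 1 read for 20627 to 21267 genes in each. Levels are given as normalised reads, that is reads divided by a size factor of the library, and in each group the deeper library is called A and the shallower B. The labelled cell type was checked against marker lists. Each of the 10 neuron markers had reads in every library, and together they made up 0.411% to 0.422% of reads in IG, 0.22% to 0.228% in NG and 0.466% to 0.478% in TG. The 8 oligodendrocyte markers, of the cells that make myelin, made up 10.1% to 10.4% of reads in IG, 6.03% to 6.35% in NG and 12.1% to 12.2% in TG, so transcripts of myelin-forming cells exceeded those of the neuron markers in every library. The 6 red blood cell markers made up 1.96% to 2.16% of reads in IG, 1.56% to 1.77% in NG and 2.05% to 2.24% in TG. The 6 astrocyte markers made up 0.619% to 0.635% in IG, 0.372% to 0.373% in NG and 0.476% to 0.484% in TG. Both lists also exceeded the neuron markers in every library. Markers of muscle, brown fat, fibroblasts and, in IG, liver also had reads, with their levels given beside the results. Across 12042 genes with a mean of at least 100 normalised reads, the log2 difference of library A from B correlated between the groups, with Pearson's r of 0.71 for IG with NG, 0.52 for IG with TG and 0.54 for NG with TG, given as a description. The labels name nothing that A or B of different groups share.

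In the respiratory chain, complexes I and II pass electrons from NADH and succinate to ubiquinone, complex III passes them on to cytochrome c, and complex IV, cytochrome c oxidase, gives them to oxygen. Complexes I, III and IV pump protons, and complex V, the ATP synthase, uses the return of the protons to make ATP. The core subunits of complex I that lie outside the membrane, all of complex II, the catalytic part of the ATP synthase and the small accessory subunits are nuclear-encoded. Mitochondrial DNA encodes the membrane core of complex I, cytochrome b of complex III, the catalytic core of complex IV and a pair of membrane subunits of the ATP synthase. Several small subunits of cytochrome c oxidase exist as a common and a tissue-restricted isoform. Cox6a2, Cox7a1 and Cox8b are the isoforms of heart and skeletal muscle, and the latter pair is also abundant in brown fat.

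The promoters of the isoform pairs Cox8b with Cox8a and Cox7a1 with Cox7a2 are shown because the steepest differences between groups lay in these pairs, and that of Atp5k because it carries a site of the type long known from nuclear genes of respiratory subunits. Each sequence runs 5′ to 3′ along the strand of the gene, from 250 bases before to 50 bases after the annotated start, from RefSeq on GRCm38.p6. Capitals mark the motifs found.
Cox8b, chr7:140900397-140900696, minus strand, with TATAAA and CAGCTG in capitals: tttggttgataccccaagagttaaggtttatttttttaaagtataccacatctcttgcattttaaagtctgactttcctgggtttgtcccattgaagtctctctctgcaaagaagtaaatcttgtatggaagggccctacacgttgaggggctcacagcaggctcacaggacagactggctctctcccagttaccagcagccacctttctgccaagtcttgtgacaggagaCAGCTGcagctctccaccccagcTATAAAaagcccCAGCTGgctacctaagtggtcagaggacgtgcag
Cox8a, chr19:7217567-7217866, minus strand, with CCGGAAGT, on the other strand, in capitals: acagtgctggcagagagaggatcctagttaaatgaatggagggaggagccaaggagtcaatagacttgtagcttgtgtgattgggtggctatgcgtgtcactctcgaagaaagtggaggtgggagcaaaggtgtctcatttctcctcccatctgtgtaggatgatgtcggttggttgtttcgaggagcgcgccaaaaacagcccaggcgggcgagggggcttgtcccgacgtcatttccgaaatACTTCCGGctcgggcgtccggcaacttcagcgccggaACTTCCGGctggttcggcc
Cox7a1, chr7:30183921-30184220, plus strand, with no searched motif: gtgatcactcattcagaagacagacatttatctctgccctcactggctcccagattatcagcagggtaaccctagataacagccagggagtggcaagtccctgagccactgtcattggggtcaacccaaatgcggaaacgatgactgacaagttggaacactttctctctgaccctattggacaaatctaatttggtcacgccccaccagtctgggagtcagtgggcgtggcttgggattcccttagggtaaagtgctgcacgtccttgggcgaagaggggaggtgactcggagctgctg
Cox7a2, chr9:79759804-79760103, minus strand, with no searched motif: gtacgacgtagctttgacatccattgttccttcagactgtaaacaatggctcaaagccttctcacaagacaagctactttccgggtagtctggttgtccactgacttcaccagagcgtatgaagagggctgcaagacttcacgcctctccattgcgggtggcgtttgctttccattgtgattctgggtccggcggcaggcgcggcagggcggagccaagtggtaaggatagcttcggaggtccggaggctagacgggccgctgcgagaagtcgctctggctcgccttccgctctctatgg
Atp5k, chr5:108434350-108434649, minus strand, with GCGCATGCG, read on either strand, in capitals: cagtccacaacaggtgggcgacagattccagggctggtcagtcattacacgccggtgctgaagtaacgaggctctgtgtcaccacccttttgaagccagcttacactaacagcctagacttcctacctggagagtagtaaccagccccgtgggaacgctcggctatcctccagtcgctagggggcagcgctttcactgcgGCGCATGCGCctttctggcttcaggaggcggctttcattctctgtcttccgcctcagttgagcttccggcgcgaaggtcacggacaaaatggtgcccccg

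A promoter was found for 66 of the 84 members, 71 promoters in all, and exact letters were searched on both strands. GCGCATGCG, from the palindromic site of the activator NRF1, was in 11.3% of the members' promoters and in 1.75% of all 32851 promoters. CCGGAAGT, a site of GABP, was in 7.04% and 3.89%, and AAGATGGCG, a site of YY1, in 9.86% and 1.40%. TATAAA was in 11.3% and 13.6%, and the muscle-type E-box CAGCTG in 8.45% and 16.3%. The motif of the muscle factor MEF2, which can overlap TATAAA, was in none of the 71 promoters of members and in 3.19% of all. The muscle isoform Cox6a2 is among the members for which no promoter was found, so it was not searched. The NRF1 site was in Atp5g2, Atp5k, Atp5l, Cox6a1, Ndufa8, Ndufa11, Uqcr11 and Uqcrc1. These matches describe the letters in a window of 300 bases and say nothing of binding.

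The first comparison asks how the subunits differed between injured and untreated samples. Of the 83 members, 67 were higher in NG than in IG and none was lower in limma's test with Benjamini-Hochberg adjustment over all 24511 genes with a read, where a call is an adjusted p under 0.05. Of all genes tested, 19.6% were called higher and 20.4% lower. The median log2 fold change of the members was 0.68 against 0 for all genes, with the range from -0.73 for Cox7b2, which did not pass, to 4.59 for Cox8b. Both NG libraries lay above both IG libraries in 75 members and below both in 4, namely Atp5a1, Atp5b, Ndufs1 and Sdha, where 32.3% and 30.2% of all genes did so. At an unadjusted p under 0.05, 71 members passed, of which 1 was lower, beside 23.8% of all genes higher and 23.6% lower.

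In the authors' deposited table for these groups 62 members passed an adjusted p under 0.05, all higher in NG, beside 14.9% of genes called higher and 16.2% called lower there. The 62 members of the authors' deposited table were all among the 67. With libraries scaled by total reads instead, 63 members were called higher and 3, Atp5b, Ndufs1 and Sdha, lower, beside 17.2% and 23.3% of all genes. With each library corrected for its trend over GC content and gene length, 45 were called higher and 9 lower, beside 20.4% and 24.5% of all genes, and the median was 0.26 where that of all genes was -0.12. The 9 lower were Atp5a1, Atp5b, Atp5s, Cox6a1, Cox7b2, Cox8a, Ndufa9, Ndufc2 and Sdha. With the length of the principal transcript in this correction 37 were higher and 10 lower, beside 19.9% and 24.5%. With a term for the deeper or shallower library of each group, a setting chosen after the data were seen, 73 were higher and 3, Atp5b, Ndufs1 and Sdha, lower, beside 24.2% and 24.8% of all genes.

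In all, reads of the members made up 1.31% and 1.33% of assigned reads in the libraries A and B of IG, 1.87% and 1.93% in those of NG, and 1.36% and 1.39% in those of TG. Their summed normalised reads were 242287 ± 2741 in IG, 369870 ± 3014 in NG and 264846 ± 3483 in TG (SD, n = 2 libraries), so the sum in NG was 1.53-fold that in IG. The same ratio was 1.54 for complex I, 1.31 for complex II, 1.74 for complex III, 1.80 for complex IV and 1.31 for complex V. In bulk RNA, fewer cells of a type and less RNA per cell cannot be told apart.

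**Figure D1:**
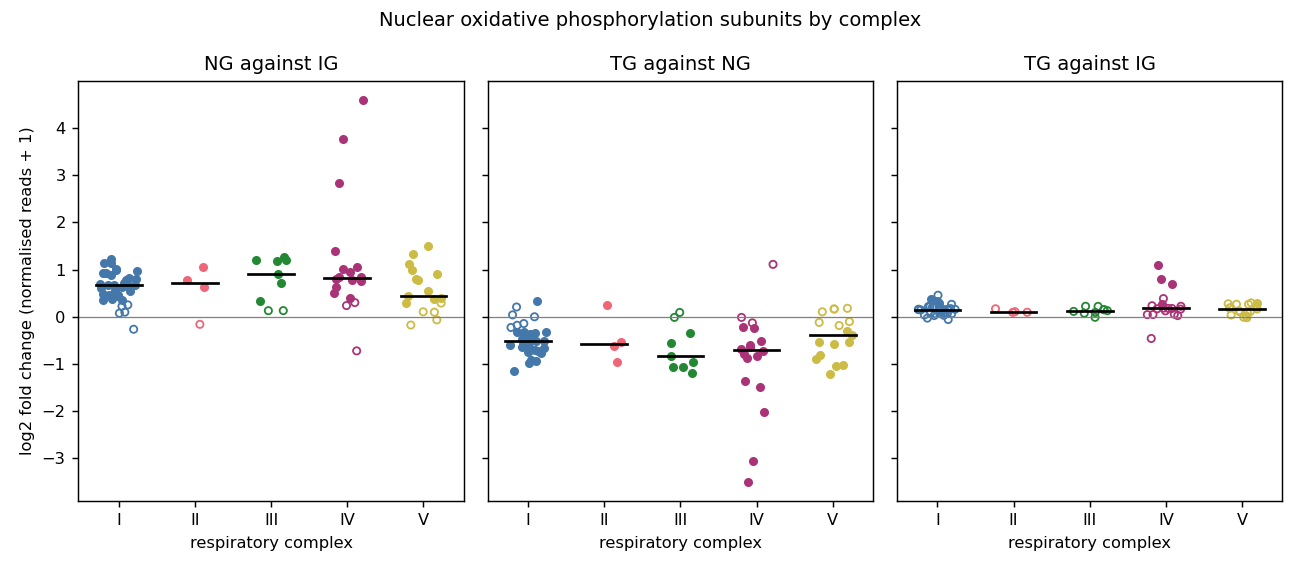
Log2 fold change of each member with a read, by complex, for the 3 pairs of groups, on the scale of log2 of normalised reads plus 1. Filled points passed limma's adjusted p under 0.05, open points did not, and bars are medians. NG lies above IG in most members of every complex, with the highest points in complex IV, and TG lies close to IG.

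Complex I, the NADH dehydrogenase, had 30 of 35 members higher in NG, with a median log2 fold change of 0.66. The 7 core subunits, which carry the flavin and the iron-sulphur clusters, had 4 called higher and a median of 0.46. The 28 accessory subunits had 26 called higher and a median of 0.69. Ndufs1, the largest of the core subunits, had 2131 and 1829 normalised reads in IG, 1768 and 1522 in NG, and 2189 and 1949.9 in TG, so that both NG libraries lay below both IG libraries, and it did not pass (adjusted p = 0.0903 in limma, log2 fold change -0.27, SE 0.11). Ndufv1, which binds NADH and the flavin, had 2969 and 3228 normalised reads in IG, 3116 and 3515 in NG, and 3277 and 3522 in TG, with the groups overlapping (adjusted p = 0.445 in limma, log2 fold change 0.10, SE 0.09).

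The core subunits called higher in NG were Ndufv2, Ndufs7, Ndufs3 and Ndufs8. Ndufv2, which holds an iron-sulphur cluster near the NADH site, had 2831 and 2809.9 normalised reads in IG, 4773 and 4171 in NG, and 3113 and 3088 in TG (adjusted p = 3.09e-04 in limma, log2 fold change 0.66, SE 0.08). Ndufs7, whose cluster hands electrons to ubiquinone, had 2226 and 2543 normalised reads in IG, 3521 and 4053 in NG, and 2309 and 2555 in TG (adjusted p = 0.001 in limma, log2 fold change 0.67, SE 0.10). In both genes the groups NG and IG did not overlap. Ndufs3 and Ndufs8 had log2 fold changes of 0.46 and 0.49. The correction for GC content and length ended the call of Ndufs8, at 0.0387, and with principal transcript length Ndufs3 stood at -0.0208.

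The steepest accessory subunits were Ndufb4, in the membrane arm, and Ndufa7, in the matrix arm. Ndufb4 had 1367 and 1382 normalised reads in IG, 3204 and 3207 in NG, and 1491 and 1384 in TG (adjusted p = 8.35e-06 in limma, log2 fold change 1.22, SE 0.07), and its mean in NG was 2.33-fold that in IG. Ndufa7 had 1284 and 1184 normalised reads in IG, 2792 and 2664 in NG, and 1457 and 1417 in TG (adjusted p = 1.40e-05 in limma, log2 fold change 1.14, SE 0.08). The least steep of those called were Ndufa13, at a log2 fold change of 0.35, and Ndufa12, at 0.35. The correction for GC content and length ended both calls and turned both signs, at -0.0409 and -0.0267. Ndufb9, with the highest level per kilobase of transcript of the complex over the 3 groups, had 2709 and 2741 normalised reads in IG, 5356 and 5274 in NG, and 3489 and 3534 in TG (adjusted p = 1.58e-05 in limma, log2 fold change 0.96, SE 0.07). Ndufb2 was low for a subunit of the complex, with 32.9 normalised reads per kilobase in IG where the median of the complex was 1865, and was not called. Its exons overlap those of Braf and 2 other genes over only 7.94% of their length. How reads with several matches were counted is not given in the sources used here, and the cause of the low level was not tested.

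**Figure D2:**
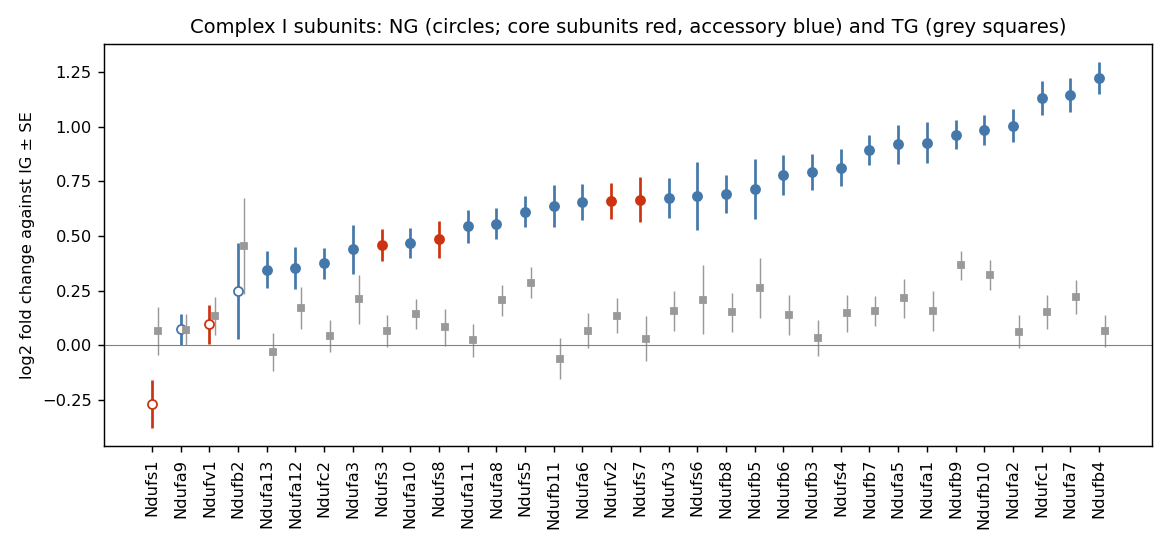
Log2 fold change against IG of 34 complex I subunits, in order of the NG value, with bars of 1 SE. Circles are NG, red for core and blue for accessory subunits, filled where the adjusted p was under 0.05 in limma's test, and grey squares are TG. Ndufs1, the accessory subunit Ndufa9 and Ndufv1 stand at the low end and Ndufa7 and Ndufb4 at the high end.

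Complex II, succinate dehydrogenase, is also an enzyme of the citric acid cycle. Its flavoprotein gene Sdha had 6855 and 6752 normalised reads in IG, 6355 and 5817 in NG, and 7276 and 7217 in TG, with both NG libraries below both IG libraries, and was not called (adjusted p = 0.123 in limma, log2 fold change -0.16, SE 0.07). The gene of the iron-sulphur subunit, Sdhb, had 2431 and 2498 normalised reads in IG, 4141 and 4342 in NG, and 2605 and 2941 in TG (adjusted p = 1.21e-04 in limma, log2 fold change 0.78, SE 0.08). The genes of the membrane anchors were higher as well. Sdhc had a log2 fold change of 0.64 and Sdhd, with 1701 and 1755 normalised reads in IG, 3658 and 3546 in NG, and 1771 and 1921 in TG, one of 1.06 (SE 0.08, limma adjusted p = 1.77e-05).

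Complex III, the cytochrome bc1 complex, had 7 of 9 members higher, with a median of 0.91. The steepest were its small subunits. Uqcr10 had 1937 and 1928 normalised reads in IG, 4570.1 and 4783 in NG, and 2031 and 2081 in TG (adjusted p = 5.72e-06 in limma, log2 fold change 1.27, SE 0.07), and Uqcrh, the hinge protein that meets cytochrome c1, had 3069.8 and 2855 normalised reads in IG, 7061 and 6618 in NG, and 3363 and 3204 in TG (adjusted p = 1.05e-05 in limma, log2 fold change 1.21, SE 0.08). In each of these genes NG stood above 2-fold of IG, by 2.42-fold and 2.31-fold of the group means. Of the redox subunits, Uqcrfs1, the Rieske iron-sulphur protein, had a log2 fold change of 0.71 (SE 0.07, limma adjusted p = 9.55e-05), and Cyc1, cytochrome c1, one of 0.33 (SE 0.11, limma adjusted p = 0.0498), which was lost in each fit without 1 library. The large core proteins Uqcrc1 and Uqcrc2 were not called, at 0.13 and 0.13, but were with the term for library depth (adjusted p = 0.0401 and 0.0386 in limma). Uqcr11 had the highest level per kilobase of the complex, with 5844 normalised reads per kilobase in IG and 13291 in NG.

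Complex V, the ATP synthase, had 12 of 17 members higher and the lowest median of the complexes, at 0.43. The alpha and beta subunits, which form the catalytic head, were not called. Atp5a1, the alpha subunit, had 15877 and 16361 normalised reads in IG, 15203 and 15554 in NG, and 16152 and 16879 in TG, with both NG libraries below both IG libraries (adjusted p = 0.526 in limma, log2 fold change -0.07, SE 0.08). Atp5b, the catalytic beta subunit, had 21319 and 22695 normalised reads in IG, 18885 and 20044 in NG, and 21256 and 22386 in TG, lower in both NG libraries than in both IG libraries, and it too did not pass (adjusted p = 0.133 in limma, log2 fold change -0.18, SE 0.08). The smallest subunits had the highest values. Atp5e, the epsilon subunit of the central stalk, had 3370.3 and 3329 normalised reads in IG, 9439 and 9542 in NG, and 4184 and 4018 in TG (adjusted p = 2.70e-06 in limma, log2 fold change 1.5, SE 0.07), and Atp5k, subunit e of the membrane part, had 2042 and 1642 normalised reads in IG, 4847 and 4426 in NG, and 2298 and 2189.8 in TG (adjusted p = 3.31e-05 in limma, log2 fold change 1.34, SE 0.11). Per kilobase of transcript, the level of Atp5e was 7957 in IG and 22543 in NG, while that of Atp5b was 11486 and 10159, so the order of the 2 genes differed between the groups.

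Subunit c, which forms the rotor ring, is encoded by 3 genes whose mature proteins are the same. Atp5g1 did not pass (adjusted p = 0.393 in limma, log2 fold change 0.10, SE 0.08). Atp5g2 was higher (adjusted p = 0.00764 in limma, log2 fold change 0.38, SE 0.08), as was Atp5g3 (adjusted p = 0.017 in limma, log2 fold change 0.28, SE 0.08). The correction for GC content and length ended both calls, at 0.19 and 0.0443, and with principal transcript length both signs turned, at -0.12 and -0.32. Atp5g3 was the highest of them per kilobase in IG, at 7869, and Atp5g1 the lowest, at 631.

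Complex IV had 15 of 18 members with a read higher in NG, with a median of 0.82, and held the steepest members of all. Cox8b, at chr7:140898945-140900446, the muscle isoform of subunit 8, had 171 and 181 normalised reads in IG, 4006 and 4526 in NG, and 368 and 383 in TG (adjusted p = 1.01e-07 in limma, log2 fold change 4.59, SE 0.10), a ratio of NG to IG means of 24.3. Cox7a1, at chr7:30184144-30186078, the muscle isoform of subunit 7a, had 196 and 217 normalised reads in IG, 2865 and 2776 in NG, and 328 and 344 in TG (adjusted p = 1.86e-07 in limma, log2 fold change 3.77, SE 0.09), a ratio of 13.7. Cox6a2, at chr7:128205435-128206387, the muscle isoform of subunit 6a, had 118 and 120.2 normalised reads in IG, 794 and 916 in NG, and 229 and 189 in TG (adjusted p = 3.19e-06 in limma, log2 fold change 2.83, SE 0.13), a ratio of 7.17. In all 3 genes every NG library stood above every IG and TG library, and every TG library above every IG library. Coordinates are on GRCm38 from GENCODE M21. After the correction for GC content and length their log2 fold changes were 3.83, 3.07 and 2.18.

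The common partners differed less. Cox8a had 5529.8 and 5546 normalised reads in IG, 6947 and 7604 in NG, and 6207 and 6303 in TG (adjusted p = 0.00321 in limma, log2 fold change 0.39, SE 0.07), but its sign turned after the GC content and length correction, at -0.25. Cox7a2 had 2519 and 2524 normalised reads in IG, 4359 and 4263 in NG, and 2512 and 2723 in TG (adjusted p = 7.03e-05 in limma, log2 fold change 0.77, SE 0.07). After that correction it was 0.22 and still called, but with principal transcript length it was 0.13 and not called. Cox6a1 had 8063 and 9663 normalised reads in IG, 9869 and 11948 in NG, and 9333 and 10529 in TG and was not called (adjusted p = 0.0908 in limma, log2 fold change 0.30, SE 0.12). Like Cox8a, it turned sign after the GC content and length correction, at -0.24, and was then called lower (adjusted p = 0.018 in limma). With the term for library depth Cox6a1 was called higher (adjusted p = 1.54e-05 in limma). Per kilobase of transcript, Cox8b stood at 0.0471 and 0.0498 of Cox8a in IG A and B, at 0.881 and 0.909 in NG, and at 0.0906 and 0.0929 in TG. The same ratio for Cox7a1 to Cox7a2 was 0.131 and 0.144 in IG, 1.10 and 1.09 in NG, and 0.219 and 0.212 in TG. For Cox6a2 to Cox6a1 it was 0.0123 and 0.0104 in IG, 0.0675 and 0.0644 in NG, and 0.0206 and 0.0151 in TG. In NG the muscle isoforms of subunits 7a and 8 stood near the level of their partners, and that of subunit 6a far below.

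Cox5b, which binds zinc and has no tissue isoform, was higher as well (adjusted p = 7.18e-04 in limma, log2 fold change 0.51, SE 0.07), and among the called members of the complex it and Cox8a had the lowest fold changes. The correction for GC content and length ended this call, at 0.12, and with principal transcript length it stood at -0.0264. The remaining isoforms were low. Cox4i2, the isoform of lung, had 23.4 and 30.3 normalised reads in IG, 48.9 and 61.8 in NG, and 24.3 and 14.9 in TG (adjusted p = 0.0387 in limma, log2 fold change 1.02, SE 0.33), a call lost in each fit without 1 library and after that correction. Its common partner Cox4i1 had 8404 and 8471 normalised reads in IG, 14333 and 14186 in NG, and 10000.2 and 9823 in TG (adjusted p = 6.36e-05 in limma, log2 fold change 0.76, SE 0.07). With principal transcript length in the correction Cox4i1 stood at 0.19 and was not called. Cox6b2, a testis isoform, had 154 and 147 normalised reads in IG, 242 and 303 in NG, and 151 and 159.5 in TG (adjusted p = 0.002 in limma, log2 fold change 0.84, SE 0.15). With principal transcript length in the correction Cox6b2 stood at 0.17 and was not called. Its partner Cox6b1 had a log2 fold change of 0.85, or 0.22 and not called after the correction for GC content and length. Per kilobase Cox6b2 stood at 0.0431 and 0.0454 of Cox6b1 in IG and at 0.0363 and 0.0536 in NG, with the groups overlapping. Cox7b2, also of testis, had 3.91 to 12.8 normalised reads in a library and was not called, while its partner Cox7b had 3807 and 3855 normalised reads in IG, 10582 and 9567 in NG, and 4006 and 3784 in TG (adjusted p = 6.36e-06 in limma, log2 fold change 1.39, SE 0.08).

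**Figure D3:**
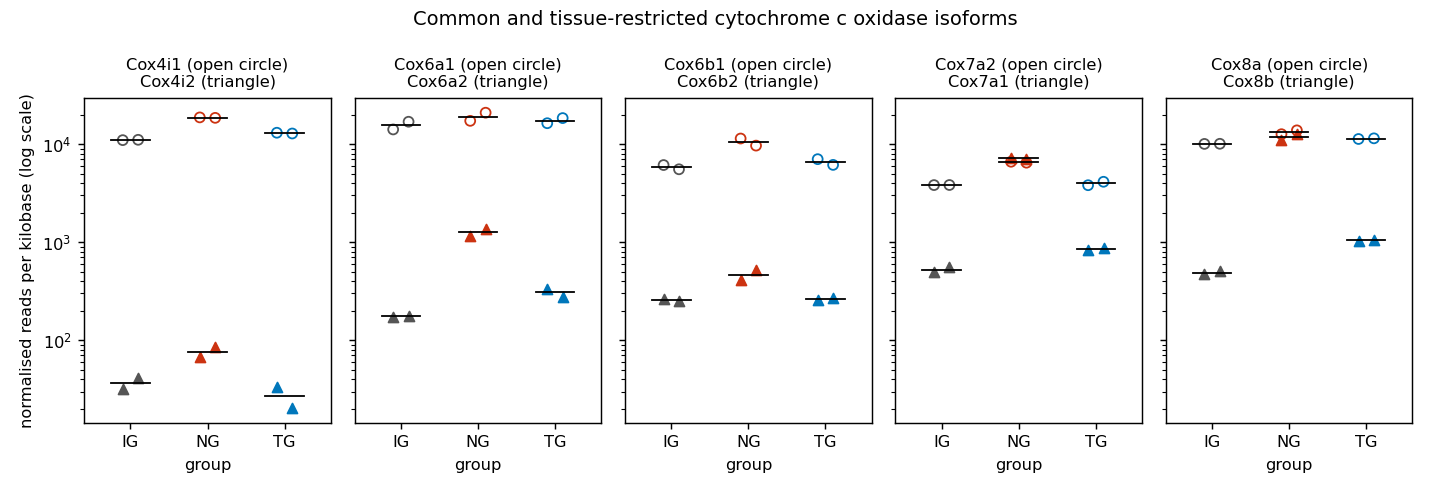
Normalised reads per kilobase of transcript, on a log axis, of common (open circles) and tissue-restricted (triangles) cytochrome c oxidase isoforms in each library, with bars at group means. In NG the triangles of Cox7a1 and Cox8b reach the circles of Cox7a2 and Cox8a, and in IG and TG they lie below.

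Marker lists of some other tissues were higher in NG along with the muscle isoforms, and others were lower or mixed. Of 10 skeletal muscle markers 8 were higher in NG, none was lower, and Tnnc2 had 0 reads in every library. Their summed level was 9479 and 9756 normalised reads in IG, 84898 and 89403 in NG, and 12535 and 12398 in TG. Actin gene Acta1 had 4031 and 4425 normalised reads in IG, 37168 and 42198 in NG, and 5898 and 5986 in TG. Of 5 brown fat markers 4 were higher in NG, with sums of 797 and 816 in IG, 6085 and 5879 in NG, and 783 and 877 in TG. Ucp1, the uncoupling protein of brown fat, had 144 and 109.7 normalised reads in IG, 3055 and 2750.3 in NG, and 98.7 and 99.8 in TG, and of the list Elovl3 was at or near 0 in every library. Of 6 heart markers 3 were higher, with sums of 244 and 216 in IG, 636 and 731 in NG, and 223 and 222 in TG. Of 7 smooth muscle and pericyte markers 6 were higher, with sums of 4053 and 3857 in IG, 24938 and 24542 in NG, and 3986 and 3825 in TG. Of 6 fibroblast markers 5, among them the collagen genes Col1a1, Col1a2 and Col3a1, were higher and Pdgfra was lower, with sums of 39157 and 39665 in IG, 112766 and 113890 in NG, and 18283 and 17878 in TG. All 10 neuron markers, 6 of 8 oligodendrocyte markers and 6 of 6 astrocyte markers were lower in NG. The 5 liver markers were all lower in NG too, with a median log2 fold change of -6.63. Of 6 red blood cell markers 1 was higher and 1 lower (median -0.13). Of 6 microglia and macrophage markers 3 were higher and 1 lower (median 0.10). The part of these cells in the results was not tested. Without the 7 tissue isoforms, 62 of the remaining 77 members were higher in NG and none was lower, with a median of 0.67.

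**Figure D4:**
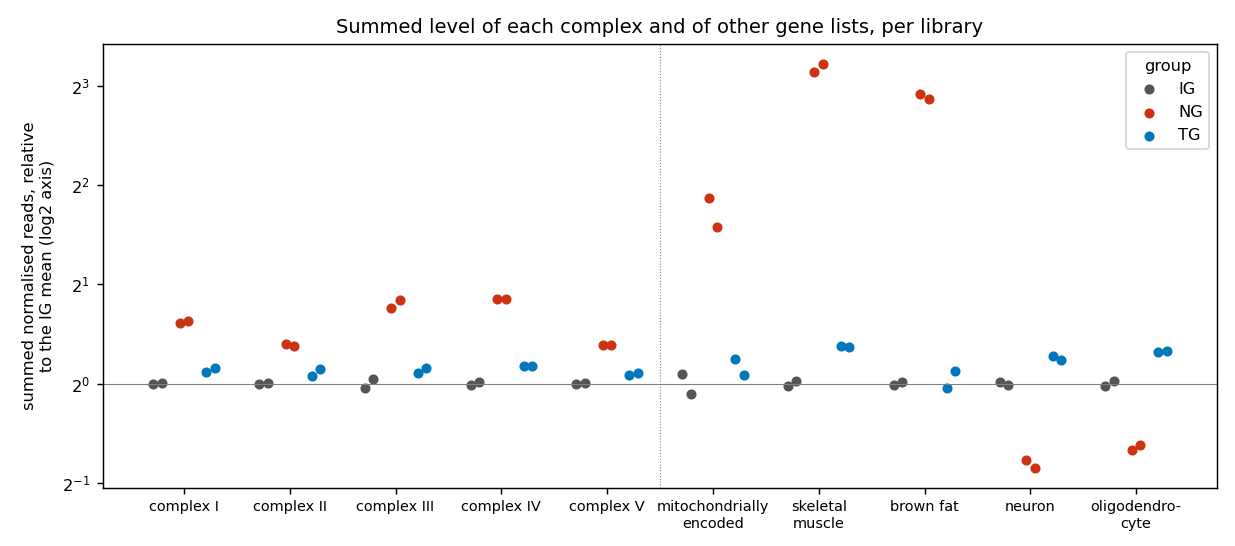
Summed normalised reads of each complex and of 5 other gene lists in each library, relative to the IG mean, on a log2 axis. The 2 NG libraries stand above both other groups in every complex, in mitochondrially encoded genes and in muscle and brown fat markers, and below them in neuron and oligodendrocyte markers.

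The differences ran with the length of the coding sequence. Across 81 members with a mean of at least 100 normalised reads, Spearman's rho between coding length and the log2 fold change of NG against IG was -0.67, and across 11985 other protein-coding genes it was -0.31. These are descriptions across genes of the same libraries, and genes are not independent replicates. The median coding length was 411 bases in the members and 1413 in the others. Of 24 members with a read and a coding length of up to 300 bases, 23 were called higher and Cox7b2 was not. Without Cox7b2, which has under 100 normalised reads, their median was 1.11, while of 234 other genes of that size and level 66.7% were called higher, with a median of 0.59. Of the 9 members over 1300 bases, 1, Ndufv3, was called higher, and the median was 0.10. Those not called in this class included Atp5a1, Atp5b, Ndufs1, Ndufv1, Sdha, Uqcrc1 and Uqcrc2, among them catalytic subunits of complexes I, II and V. Of the 4 members of 1501 to 2500 bases none was called, with a median of -0.17. Of 3018 other genes of that size and level 16.5% were called higher and 39.1% lower, with a median of -0.19. Of 8 members of 901 to 1500 bases 3 were called higher, with a median of 0.17. Of 3289 other genes there 23.8% were called higher and 30.1% lower, with a median of -0.04. Length and role of these large subunits cannot be told apart.

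**Figure D5:**
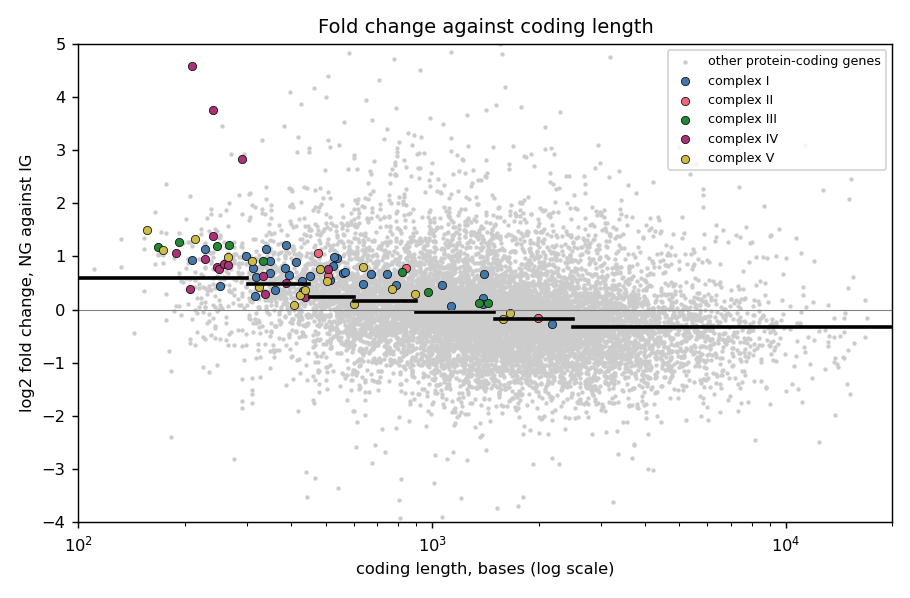
Log2 fold change of NG against IG by coding length, on a log axis, for the members (coloured by complex) and other protein-coding genes (grey) with a mean of at least 100 normalised reads. Black bars are medians of the other genes by length class, and 56 of the other genes lie outside the axes. Short genes lie higher in both sets, and the median of the members is above that of the other genes in each class they fill.

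Other mitochondrial genes were set beside the members as whole lists. Of the 13 subunits encoded in mitochondrial DNA, 12 were higher in NG and none lower, with a median of 1.71. They made up 5.39% and 4.66% of reads in IG, 17.2% and 14.2% in NG, and 5.64% and 5.08% in TG. The sum of their normalised reads in NG was 3.32-fold that in IG. Their levels were very uneven. In IG mt-Co1 had 381698 and 335979 normalised reads, mt-Co2 146 and 167, and mt-Nd4l, which was not called, 0.779 and 3.50. How reads with several matches were counted is not given, and its part in these levels was not tested. Of 76 mitochondrial ribosomal protein genes 57 were higher and 1 lower, with a median of 0.49. Of 43 assembly factors 19 were higher and 1 lower (median 0.32), and of 13 citric acid cycle genes 7 were higher and 1 lower (median 0.31). Citrate synthase, Cs, had 4620.2 and 4234 normalised reads in IG, 5660.1 and 5376 in NG, and 4753 and 4507 in TG (adjusted p = 0.0114 in limma, log2 fold change 0.32, SE 0.08).

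Transcriptional regulators of mitochondrial genes were mixed, with 5 of 14 higher and 2 lower, and with none higher and 2 lower in the authors' deposited table. Ppargc1a, which encodes the coactivator PGC-1 alpha, had 477 and 403 normalised reads in IG, 315 and 282 in NG, and 655 and 574 in TG and was lower in NG (adjusted p = 0.00746 in limma, log2 fold change -0.55, SE 0.12). Nrf1 (0.28), Gabpa (0.21) and Tfam (-0.05) did not pass in limma's test. In a list of phosphate and nucleotide carriers, Vdac channels and mitochondrial creatine kinases, 3 of 9 genes were higher and 3 lower. The brain-type mitochondrial creatine kinase Ckmt1 had 3550.2 and 3538 normalised reads in IG, 1621 and 1601 in NG, and 4110 and 4052 in TG (adjusted p = 7.71e-06 in limma, log2 fold change -1.14, SE 0.07), and the muscle-type Ckmt2 had 49.1 and 40.8 normalised reads in IG, 610 and 556 in NG, and 61.5 and 45.9 in TG (adjusted p = 5.09e-06 in limma, log2 fold change 3.67, SE 0.19), so the 2 isoforms lay on opposite sides.

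The second comparison asks how injured samples with hydrogen differed from injured samples without it. The NG libraries are the same as in the first comparison, so the 2 are not independent. Of the 83 members, 63 were lower in TG than in NG and 2 were higher, with a median log2 fold change of -0.54, while 23.1% of all genes were called lower and 22.2% higher. Both TG libraries lay below both NG libraries in 68 members and above in 7, beside 33.7% and 32.0% of all genes. In the table deposited by the authors (the authors' deposited table), 60 members were lower and 1 higher, beside 18.8% and 18.7% of genes there. After correction for GC content and length 28 were called lower and 22 higher, beside 22.0% and 29.0% of all genes, and the median was -0.06 where that of all genes was 0.20. With principal transcript length 20 were lower and 26 higher, beside 21.6% and 29.1%. With the term for library depth 69 were lower and 5 higher, beside 26.9% and 26.3%. At an unadjusted p under 0.05, 63 members were lower and 2 higher, beside 26.3% and 25.1% of all genes.

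By complex, 28 of 35 members of complex I were lower in TG and 1 was higher, with a median of -0.52. The counts were 3 lower and 1 higher of 4 in complex II (median -0.57), 7 lower of 9 in complex III (-0.84), 15 lower of 18 in complex IV (-0.70) and 10 lower of 17 in complex V (-0.40). After the correction for GC content and length complex I had 10 lower and 8 higher, complex II 3 and 1, complex III 5 and 2, complex IV 5 and 5, and complex V 5 and 6. The 2 members called higher were Ndufs1 (adjusted p = 0.0379 in limma, log2 fold change 0.33, SE 0.11) and Sdha (adjusted p = 0.0228 in limma, log2 fold change 0.25, SE 0.07). Ndufs1 kept its call in none of the 6 fits that left out a library, and Sdha lost it without IG A, IG B, TG A or TG B. The correction for GC content and length ended the call of Ndufs1, at 0.16, and with the term for library depth both were called. With libraries scaled by total reads 62 members were lower and 2 higher, beside 22.8% and 22.5% of all genes.

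The members with the lowest adjusted p were Cox8b (adjusted p = 1.50e-07 in limma, log2 fold change -3.50, SE 0.10), Cox7a1 (adjusted p = 2.60e-07 in limma, log2 fold change -3.07, SE 0.09), Atp5e (adjusted p = 3.15e-06 in limma, log2 fold change -1.21, SE 0.07), Cox7b (adjusted p = 3.36e-06 in limma, log2 fold change -1.37, SE 0.08) and Uqcr10 (adjusted p = 3.72e-06 in limma, log2 fold change -1.19, SE 0.07). They are the muscle isoforms of subunits 8 and 7a and small subunits of complexes V, IV and III. Cox6a2 was lower by 2.03 on the log2 scale as well. With the muscle isoforms, 8 of 9 skeletal muscle markers with reads and 4 of 5 brown fat markers were lower in TG than in NG, as were 5 of 6 fibroblast markers, and 10 of 10 neuron markers were higher. Among the largest subunits, Atp5b had a log2 fold change of 0.17, Atp5a1 of 0.10 and Ndufv1 of 0.04, none of them called. Of the subunits encoded in mitochondrial DNA 12 of 13 were lower, with a median of -1.55. Ppargc1a was higher in TG (adjusted p = 1.78e-04 in limma, log2 fold change 1.04, SE 0.12).

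The third comparison sets injured samples with hydrogen against untreated ones. Most members did not pass. Of the 83, 8 were higher in TG than in IG and none lower, with a median log2 fold change of 0.15, beside 4.16% of all genes higher and 7.16% lower and a median of 0.01. Both TG libraries lay above both IG libraries in 58 members and below both in none, while 25.6% and 24.1% of all genes did so. At an unadjusted p under 0.05, 21 members passed and none was lower, beside 11.2% of all genes higher and 13.1% lower. In the authors' deposited table, 4 were higher and none lower, beside 4.46% and 6.69% of genes there. With scaling by total reads 4 were higher and none lower, beside 2.79% and 8.62% of all genes. After correction for GC content and length 46 were called higher and none lower, beside 11.3% and 9.69% of all genes, with a median of 0.23 where that of all genes was 0.07. With principal transcript length 38 were higher and none lower, beside 11.7% and 9.60%. With the term for library depth 43 were higher and none lower, beside 11.4% and 12.5% of all genes, so the number of calls in this comparison depended on the fit.

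The steepest of the 8 were the muscle isoforms Cox8b (adjusted p = 2.79e-04 in limma, log2 fold change 1.09, SE 0.10), Cox6a2 (adjusted p = 0.00686 in limma, log2 fold change 0.80, SE 0.13) and Cox7a1 (adjusted p = 0.00231 in limma, log2 fold change 0.70, SE 0.09). The mean of Cox8b was 176 ± 7.30 in IG and 376 ± 10.7 in TG (SD, n = 2 libraries), and no library of one group reached the other. The accessory subunits of complex I in this group of 8 were Ndufb9 (adjusted p = 0.0102 in limma, log2 fold change 0.37, SE 0.07), Ndufb10 (adjusted p = 0.0191 in limma, log2 fold change 0.32, SE 0.07) and Ndufs5 (adjusted p = 0.0369 in limma, log2 fold change 0.29, SE 0.07). The other 2 were Atp5e (adjusted p = 0.0296 in limma, log2 fold change 0.29, SE 0.07) and Cox5b, a common subunit of complex IV (adjusted p = 0.0468 in limma, log2 fold change 0.28, SE 0.07). None of the 8 calls was kept in every fit without 1 library. Each such fit left 1 library in a group, and the share of all genes called in it was not counted. In these fits the median of the members was 0.12 to 0.15. Of 9 skeletal muscle markers with reads, 3 were higher in TG than in IG and 1 was lower, and the brown fat markers had none called. All 6 fibroblast markers were lower, with a median of -1.12, and 3 of 10 neuron markers and 3 of 8 oligodendrocyte markers were higher and none was lower. The 5 liver markers were lower in TG, with sums of 15808 and 14946 normalised reads in IG, 59.6 and 65.5 in NG, and 29.1 and 28.7 in TG. Of the regulators, Ppargc1a was higher (adjusted p = 0.0416 in limma, log2 fold change 0.48, SE 0.12).

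Per kilobase of transcript, the levels of the subunits differed widely within a complex. In IG they ran from 32.9 for Ndufb2 to 3915 for Ndufa11 in complex I, from 645 for Sdhc to 2346 for Sdha in complex II, and from 1679 for Uqcrc2 to 5844 for Uqcr11 in complex III. In complex IV they ran from 16.2 for Cox7b2 to 15522 for Cox6a1. Among the members placed in complex V by symbol alone they ran from 116 for Atp5s to 11486 for Atp5b. Of the 84 members, 28 share exon bases with another gene, in none over more than 50% of their exon length, and reads could be split or left out there, since strand handling is not given in the sources used here. Processed copies of these genes are common in the mouse genome, and the 11 pseudogenes named after members held 0.00967% as many reads as the members. Copies under other names were not counted, so the reads of all copies are not known.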

How the data were processed

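Per the labels' protocols, Trizol was used for extraction and an Illumina TruSeq kit for the libraries. The submitters' processing notes name Bowtie2 2.0.6, HTSeq 0.6.1 and mm10, while annotation, strand handling, counting settings and the tool behind the authors' test were not given in the sources used here. Deposited by the authors were 3 tables of 35275 genes. Per the file headers each holds 2 read count columns, an adjusted and an unadjusted p-value and a log2 fold change. The deposited read count columns are a normalised signal, averaged by the authors over a group's 2 libraries after division by size factors. The deposited log2 fold change is the log2 ratio of these means, and the deposited adjusted p-value a Benjamini-Hochberg adjustment.

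Each group stands in 2 tables, which gives 2 equations a gene for the reads of its libraries. Solved for these, 100% of genes came out whole within 0.001 reads. The solution carries no replicate numbers. Median-of-ratios factors of all 6 libraries scaled the reads. The test was limma 3.58.1 (R 4.3.3) on log2(normalised reads + 1), all libraries in one fit, for 24511 genes with a read, two-sided, with 3 residual and 5.23 prior degrees of freedom and a trend of the prior variance. A fold change on this scale understates that of low genes. With 2 libraries a group an exact permutation test cannot go below p = 0.333.

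Symbols and positions come from GENCODE M21, where 34490 gene IDs had a symbol. Levels per kilobase use the principal transcript. Members are named by fixed rules: isoforms, core complex I, complex II, Cyc1, subunits alpha, beta and c, the 2 called members with the highest and the 2 with the lowest fold change of each complex for NG against IG, the 5 lowest adjusted p of the TG comparisons and the highest level per kilobase of each complex. One gene under these rules is not reported here. Others are named where a count of few members called for it. The members and lists were chosen with earlier results of these data known. Settings tried were pseudocounts, a filter on low values, scalings, GC and length corrections, the variance trend, the libraries in the fit, a term for library depth, the authors' own values and leaving out each library.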

Additional observations from a re-analysis of the deposited data

How the results depend on the processing

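Named values reversed only under the GC and length corrections, of which the one using principal transcript length was added after the data were seen; 37 of the values for named members did so. With exon length, log2 fold changes of NG against IG became -0.24 for Cox6a1, -0.25 for Cox8a, -0.0267 for Ndufa12 and -0.0409 for Ndufa13, and those of TG against NG 0.26 for Atp5g3, 0.29 for Cox5b, 0.41 for Cox6a1, 0.0421 for Cox6b1, 0.46 for Cox8a, 0.33 for Ndufa12, 0.0679 for Ndufa13, 0.0236 for Ndufb9, 0.16 for Ndufs8 and 0.00676 for Uqcrfs1. With principal transcript length, NG against IG gave -0.12 for Atp5g2, -0.32 for Atp5g3, -0.0264 for Cox5b, -0.30 for Cox6a1, -0.28 for Cox8a, -0.10 for Ndufa12, -0.00132 for Ndufa13, -0.0208 for Ndufs3 and -0.00471 for Ndufs8. With it, TG against NG gave 0.10 for Atp5g2, 0.55 for Atp5g3, 0.11 for Cox4i1, 0.38 for Cox5b, 0.46 for Cox6a1, 0.0551 for Cox6b1, 0.00346 for Cox7a2, 0.50 for Cox8a, 0.37 for Ndufa12, 0.0351 for Ndufa13, 0.0385 for Ndufb10, 0.11 for Ndufb9, 0.19 for Ndufs3 and 0.19 for Ndufs8. The cause was not tested.

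For NG against IG, members called higher, lower and their median were 45, 9 and 0.26 with exon length correction, 37, 10 and 0.17 with principal transcript length, and 63, 3 and 0.60 with scaling by total reads. The median was 0.77 with totals without mitochondrially encoded genes and 0.72 with upper quartile scaling. For TG against NG, members higher, lower and their median were 22, 28 and -0.0594 with exon length correction and 26, 20 and 0.0385 with principal transcript length. None was higher with totals without mitochondrially encoded genes (median -0.70), with upper quartile scaling (-0.57) or without the variance trend, and 1 in the authors' deposited table. Totals without mitochondrially encoded genes put the median of all genes at -0.10 in that comparison, and relative to it the members were at -0.59. Relative to all genes, the exon length correction left the members at 0.38, -0.26 and 0.17 in the 3 comparisons. For TG against IG, 46 were higher with exon length correction (median 0.23), 38 with principal transcript length (0.22), 4 with total reads (0.0751), 4 with totals without mitochondrially encoded genes (0.0802), 2 without the variance trend and 4 in the authors' deposited table (0.13), and the median was 0.13 with only the 4 libraries compared. The corrections kept 45 and 36 of the 67 calls for NG against IG, 29 and 22 of 65 for TG against NG, and 8 and 8 of 8 for TG against IG.

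Leaving out each library gave a median of the members of 0.68 to 0.72 for NG against IG. The median was -0.59 to -0.54 for TG against NG and 0.12 to 0.15 for TG against IG. Fewer members were called in these fits than with all libraries. Each fit left 1 library in a group, and the share of all genes called in it was not counted. A lone library was assumed to vary like the other groups. No paired analysis was possible because the recovered libraries carry no replicate numbers. A term for the deeper or shallower library of each group, added after the data were seen, gave 73 higher and 3 lower for NG against IG, 5 and 69 for TG against NG, and 43 and 0 for TG against IG. With 2 libraries a group, small differences could be missed.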
